A study of Homo sapiens with 18 samples.

Results

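The comparison was of MDA-MB-436 cells treated with siRNA against SMARCAL1 and of the same line treated with a control siRNA, with 2 PLATE-seq libraries in each group. These 4 libraries, chosen by their titles, were among 18 in the series. MDA-MB-436 is an established human triple-negative breast cancer line that carries a BRCA1 mutation. An siRNA is a short duplex RNA that guides the Argonaute complex to a matching messenger RNA, so the loss of message is acute and the cells are an uncloned population. PLATE-seq reads polyadenylated RNA from lysates of a multiwell plate, tagged by well and then pooled. Other libraries of the series were used only to set these 4 in context. They were 2 PLATE-seq libraries each of SMARCAL1 knockout clones 1, 2 and 3 and of their control, and 3 TruSeq total RNA libraries each of knockout clone 1 and its control. The labels call the replicates biological and give no siRNA sequence, dose or time after transfection. Each clone is 1 clonal line. The titles name MDA-MB-436, whereas the cell line tags of the 4 siRNA samples count up from MDA-MB-445 to MDA-MB-448, so the line was taken from the titles. The stated interest of the study is in innate immune signals and PD-L1 under loss of SMARCAL1.

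SMARCAL1 is an annealing helicase of the SNF2 family. Replication protein A, the heterotrimer of RPA1, RPA2 and RPA3 that coats single-stranded DNA, brings SMARCAL1 to stalled replication forks, where SMARCAL1 rewinds DNA and helps to reverse the fork. HLTF and ZRANB3 are related fork remodellers, and BRCA2 helps to shield reversed forks from nucleases. DNA that escapes to the cytosol is sensed by cGAS and STING, which act through TBK1 and IRF3 to switch on interferon and interferon-stimulated genes. CD274 encodes PD-L1, the checkpoint ligand that restrains T cells.

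The siRNA SMARCAL1 libraries held 1574565 and 1091516 counts and the siRNA control libraries 1127844 and 1460316, within the range of 807872 to 3068902 over the 12 PLATE-seq libraries. Mitochondrial transcripts took 32.2% and 34.3% of counts in siRNA SMARCAL1 and 31.5% and 34.3% in siRNA control. Ribosomal protein transcripts took 8.88% and 8.61% in siRNA SMARCAL1 and 9.10% and 8.46% in siRNA control. Log2 levels correlated at 0.891 between the siRNA SMARCAL1 libraries, at 0.894 between the siRNA control libraries, and at 0.872 to 0.902 across the groups. Over 4235 genes with a mean of 20 CPM (counts scaled to library size) or more, the median absolute log2 difference was 0.32 between the siRNA SMARCAL1 libraries and 0.35 between the siRNA control libraries, against 0.36 to 0.39 across the groups. The share of these genes that differed by more than 2-fold was 9.82% between the siRNA SMARCAL1 libraries, 8.64% between the siRNA control libraries and 9.07% to 13.1% across the groups, so the groups were not set apart on every measure. Spike-in RNA made up 0.0230% to 0.0534% of counts in the 6 PLATE-seq libraries numbered replicate 1 and 0.000205% to 0.00136% in the 6 numbered replicate 2, a split shared evenly by the groups. For the labelled line, ESR1 and PGR had 0 counts in all 12 libraries, and VIM stood at 199 and 188 CPM in siRNA SMARCAL1 and 214 and 260 CPM in siRNA control. CDH1 and EPCAM, epithelial genes looked for as low or absent, were both detected. CDH1 stood at 29.9 and 18.8 CPM in siRNA SMARCAL1 and 8.77 and 19.7 CPM in siRNA control. EPCAM stood at 0.68 and 2.97 CPM in siRNA SMARCAL1 and 3.51 and 8.42 CPM in siRNA control. ERBB2, also looked for as low, summed to 85 counts over the 12 libraries. In TruSeq, CDH1 had 1 to 9 counts a library. Of markers of other cell types, 8 of 14 leukocyte genes (PTPRC and CD3E among them), 4 of 10 endothelial genes (VWF and CDH5 among them) and 6 of 8 fibroblast genes (DCN and LUM among them) had 0 counts in all 12 libraries. The leukocyte list summed to 20 and 17 counts in siRNA SMARCAL1 and 5 and 14 in siRNA control, and the endothelial list to 29 and 24 counts in siRNA SMARCAL1 and 20 and 12 in siRNA control. The fibroblast list summed to 5 and 4 counts in siRNA SMARCAL1 and 52 and 11 in siRNA control, mostly from PDGFRA in siRNA control.

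SMARCAL1 itself (chr2:216412414-216483053, GRCh38, plus strand) had 0 and 0 counts in the siRNA SMARCAL1 libraries, against 7 and 8 counts in the siRNA control libraries. The groups did not overlap, and both siRNA SMARCAL1 libraries lay in the direction of their label. Set against 3 counts summed over both siRNA SMARCAL1 libraries, the floor used for a gene with none, SMARCAL1 was 4.84-fold lower in siRNA SMARCAL1. That bound covers counting error in siRNA SMARCAL1 only, and the fitted 95% interval of the log2 fold change reached up to -1.75. The unadjusted p was 0.00819 and the adjusted p 0.573, by edgeR's quasi-likelihood test over 8595 genes with Benjamini-Hochberg adjustment. The gene is sparse in this assay: the clones' 2 control libraries held 0 and 3 counts, and the 6 knockout libraries held 3 to 44 counts.

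RPA1, the large subunit that binds single-stranded DNA (chr17:1829702-1900082, plus strand), stood at 61.9 and 79.1 CPM in siRNA SMARCAL1 and at 5.26 and 14.7 CPM in siRNA control. The groups did not overlap, and the fitted log2 fold change was 2.76 (SE 0.71, 95% interval 1.31 to 4.22, adjusted p = 0.323 by edgeR), which did not pass the threshold of 0.05. The clones' control libraries held 18.8 and 74.4 CPM of RPA1 and the 6 knockout libraries 13.3 to 133 CPM, so the siRNA SMARCAL1 values lay inside the range of the clone libraries and 1 siRNA control library, at 5.26 CPM, lay below it, with the other at 14.7 CPM near its lower end. Exons of RPA1 overlap SMYD4 on the other strand, and without a stated strand setting their reads could not be told apart. RPA2, which carries the contact surface for SMARCAL1, stood at 43.6 and 42.5 CPM in siRNA SMARCAL1 and 30.7 and 56.2 CPM in siRNA control. RPA3 stood at 455 and 448 CPM in siRNA SMARCAL1 and 427 and 541 CPM in siRNA control. Both RPA2 and RPA3 overlapped between the groups, with log2 fold changes of -0.02 (SE 0.43) and -0.10 (SE 0.26).

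**Figure D1:**
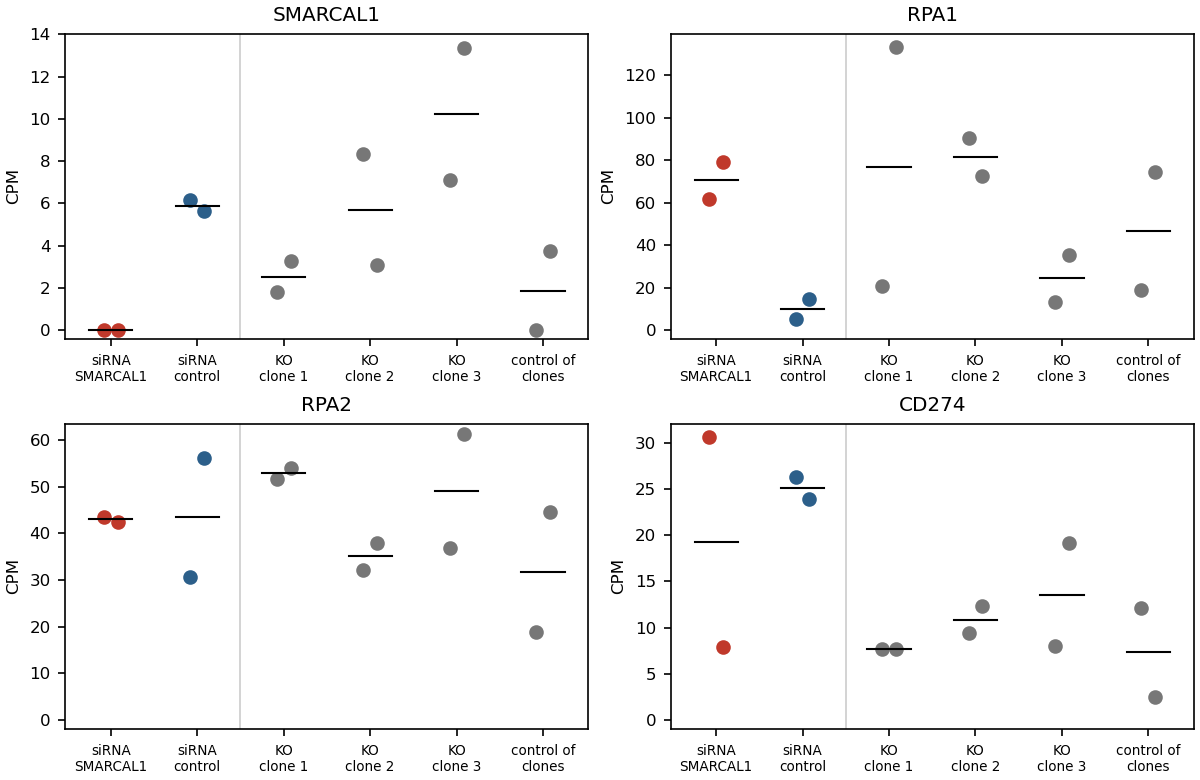
Level of SMARCAL1, RPA1, RPA2 and CD274 in the 12 PLATE-seq libraries, in CPM on linear axes that differ between panels. Each point is 1 library and each bar the mean of 2; SMARCAL1 is at 0 in both siRNA SMARCAL1 libraries, and RPA1 at 61.9 and 79.1 CPM there lies above both siRNA control libraries but within the spread of the knockout (KO) and control libraries to the right.

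Of the fork remodelling and protection genes, 36 of the 43 in the file were tested. None passed the adjusted threshold. At an unadjusted p under 0.05, 1 was higher, RPA1, and 4 were lower, SMARCAL1 itself, BRCA2, NBN and RAD50, against 2.85% higher and 3.48% lower over all genes tested. The list's median log2 fold change was -0.30, with 11 members above 0 and 25 below, against a median of -0.02 over all genes. It was -0.08 without siRNA control replicate 2. BRCA2, a homologous recombination mediator, stood at 0.68 and 7.91 CPM in siRNA SMARCAL1 and 32.4 and 13.3 CPM in siRNA control (log2 fold change -2.51, SE 0.79, adjusted p = 0.492 by edgeR). The groups did not overlap, and the 8 clone libraries held 9.92 to 21.3 CPM. NBN and RAD50, which form a complex with MRE11 that resects DNA ends, lay on the same side. NBN stood at 29.9 and 34.6 CPM in siRNA SMARCAL1 and 70.1 and 52.6 CPM in siRNA control, and RAD50 at 34.7 and 44.5 CPM in siRNA SMARCAL1 and 61.4 and 81.4 CPM in siRNA control. The related remodeller HLTF, at 2.04 and 9.89 CPM in siRNA SMARCAL1 and 8.77 and 15.4 CPM in siRNA control, overlapped between the groups. In the ATR and ATM signalling list, 4 of 20 genes lay above 0 and 16 below, with a median of -0.28, and LIG4 was its 1 member at an unadjusted p under 0.05. The median was -0.55 without siRNA SMARCAL1 replicate 1, -0.16 without siRNA SMARCAL1 replicate 2 and -0.19 without siRNA control replicate 1.

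CD274 (chr9:5450503-5470566, plus strand) stood at 30.6 and 7.91 CPM in siRNA SMARCAL1 and at 26.3 and 23.9 CPM in siRNA control. The siRNA SMARCAL1 values bracketed the siRNA control values. The log2 fold change was -0.34 (SE 0.66, adjusted p = 0.969 by edgeR), and its 95% interval ran from -1.71 to 1.03. A halving and a doubling of CD274 therefore both lay inside the interval, and the sign turned to 0.29 without siRNA SMARCAL1 replicate 2.

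The sensing pathway was expressed but showed no member at an unadjusted p under 0.05 among 19 tested. Its median log2 fold change was 0.19, and 0.03 to 0.10 with any 1 of the 4 siRNA libraries left out, the lowest without siRNA control replicate 1. STING, listed as TMEM173, stood at 76.9 and 49.4 CPM in siRNA SMARCAL1 and 59.6 and 44.2 CPM in siRNA control. cGAS, listed as MB21D1, stood at 33.3 and 25.7 CPM in siRNA SMARCAL1 and 9.64 and 38.6 CPM in siRNA control. IRF3 stood at 46.3 and 41.5 CPM in siRNA SMARCAL1 and 43.8 and 35.8 CPM in siRNA control. All 3 genes overlapped between the groups.

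Among interferon-stimulated genes, 22 of 48 were abundant enough to test, and the median log2 fold change was 0.10. IFNB1, CXCL10 and TNF had 0 counts in every PLATE-seq library. The median turned to -0.09 without siRNA SMARCAL1 replicate 2 and was 0.36 without siRNA SMARCAL1 replicate 1 and 0.60 without siRNA control replicate 1. It was -0.00 with library totals in place of TMM and 0.27 with no filter on low counts. Of the 22 genes, 13 lay above 0 and 9 below. Without overlap, 6 were higher and 3 lower, against 18.1% higher and 19.2% lower over all genes. IFITM3, an antiviral membrane protein and the most abundant member described here, stood at 962 and 1309 CPM in siRNA SMARCAL1 and 1002 and 1376 CPM in siRNA control, an overlap with a log2 fold change of -0.07 (SE 0.27). IFIT1, which binds viral RNA, had the highest log2 fold change of the list, 1.55 (SE 1.25), at 13.6 and 8.90 CPM in siRNA SMARCAL1 and 2.63 and 4.91 CPM in siRNA control. ISG15, a ubiquitin-like modifier, stood at 27.2 and 13.8 CPM in siRNA SMARCAL1 and 35.9 and 37.9 CPM in siRNA control (log2 fold change -0.82, SE 0.45). The 1 member at an unadjusted p under 0.05 was LGALS3BP, a secreted glycoprotein, at 55.1 and 35.6 CPM in siRNA SMARCAL1 and 50.8 and 125 CPM in siRNA control. Its lower fold change came with overlapping groups. HLA-C and B2M, a heavy chain and the light chain of MHC class I, overlapped between the groups, with log2 fold changes of 0.24 and 0.25.

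Inflammatory cytokines gave the list with the highest median of those with 2 or more members tested, 0.28 over 16 genes, of which 3 were higher and 0 lower at an unadjusted p under 0.05, against 2.85% higher and 3.48% lower over all genes. The median was 0.01 without siRNA control replicate 1. IL1A, an alarmin cytokine, stood at 951 and 1197 CPM in siRNA SMARCAL1 and 536 and 715 CPM in siRNA control (log2 fold change 0.78, SE 0.28, adjusted p = 0.590 by edgeR). CXCL8, the neutrophil chemokine, stood at 75.5 and 64.3 CPM in siRNA SMARCAL1 and 30.7 and 28.1 CPM in siRNA control (log2 fold change 1.25, SE 0.45, adjusted p = 0.609 by edgeR). In both genes the groups did not overlap, and CXCL8 in the siRNA SMARCAL1 libraries was above all 10 other PLATE-seq libraries, which reached 46.9 CPM. CXCL3, a related chemokine, stood at 103 and 67.2 CPM in siRNA SMARCAL1 and 44.7 and 39.3 CPM in siRNA control. In TruSeq libraries of knockout clone 1, with controls of their own and 1089 of 17371 genes (6.27%) called, IL1A and CXCL8 were higher too, with log2 fold changes of 0.70 (adjusted p = 0.00307) and 0.77 (adjusted p = 0.00634) by edgeR. The mean effect of the 3 clones in PLATE-seq was -0.35 for IL1A and 0.84 for CXCL8. The clones were unlike in IL1A, with group means of 903 CPM in clone 1, 373 in clone 2 and 99.4 in clone 3, against 411 CPM in their control. REL, an NF-kappa-B subunit, was the 1 NF-kappa-B target at an unadjusted p under 0.05, and it was lower, at 48.3 and 54.4 CPM in siRNA SMARCAL1 against 117 and 100.4 CPM in siRNA control.

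Across all genes, 0 of 8595 passed an adjusted p of 0.05 (0%) in edgeR, and 544 (6.33%) had an unadjusted p under 0.05, 245 higher and 299 lower. DESeq2 called 2 (0.0233%) after adjustment, ATP1B1 and RP11-54H7.4, both lower, and gave 525 (6.11%) at an unadjusted p under 0.05. It gave no adjusted p for 3499 of the 8595 genes, so its adjustment covered fewer genes than that of edgeR. Library totals without TMM scaling gave 170 higher and 407 lower at an unadjusted p under 0.05, and shifted the median of all genes to -0.11. The groups did not overlap for 3211 genes (37.4%), of which 1559 (18.1%) were higher and 1652 (19.2%) lower in siRNA SMARCAL1. Precision depended on level, with a median standard error of 1.09 log2 units in 2473 genes with a mean below 10 CPM and of 0.25 in 372 genes at 300 CPM or more.

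**Figure D2:**
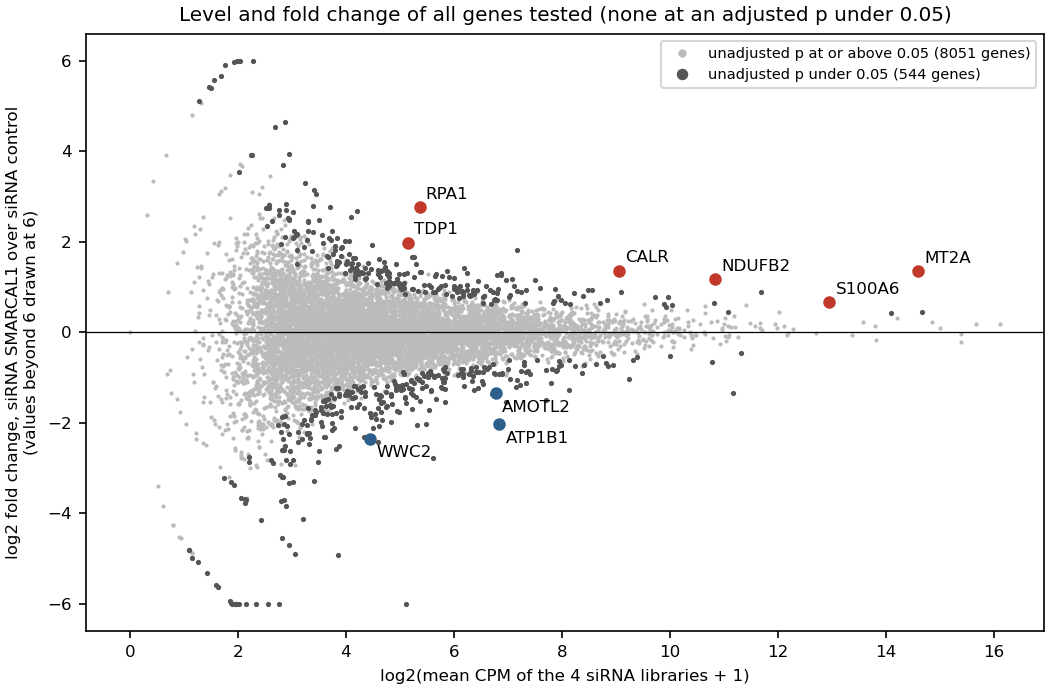
Fold change against level for the 8595 genes tested. The horizontal axis is log2 of the mean CPM of the 4 siRNA libraries plus 1, the vertical axis the fitted log2 fold change of siRNA SMARCAL1 over siRNA control, and dark points are the 544 genes at an unadjusted p under 0.05. The spread narrows with level, and MT2A, at a log2 fold change of 1.36, stands apart from other abundant transcripts.

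The 30 genes considered next were those with the smallest p in each direction, 15 higher and 15 lower, among genes that did not overlap and averaged 20 CPM or more in whichever group was higher. Their adjusted p-values were 0.166 to 0.401 by edgeR, so each difference is given as a value and none as a change. Because overlap with siRNA control was part of the rule, their separation from siRNA control is no finding. The other 8 PLATE-seq libraries were no part of that rule, although they share the estimate of the spread. Of the 15 higher genes, 6 were above all 10 other PLATE-seq libraries, against 210 (13.5%) of the 1559 higher genes without overlap. Of the 15 lower genes, 11 were below all 10, against 210 (12.7%) of 1652. A small p favours large differences, and the siRNA control libraries among the 10 were part of the rule. The excess over these shares is therefore no separate finding.

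**Figure D3:**
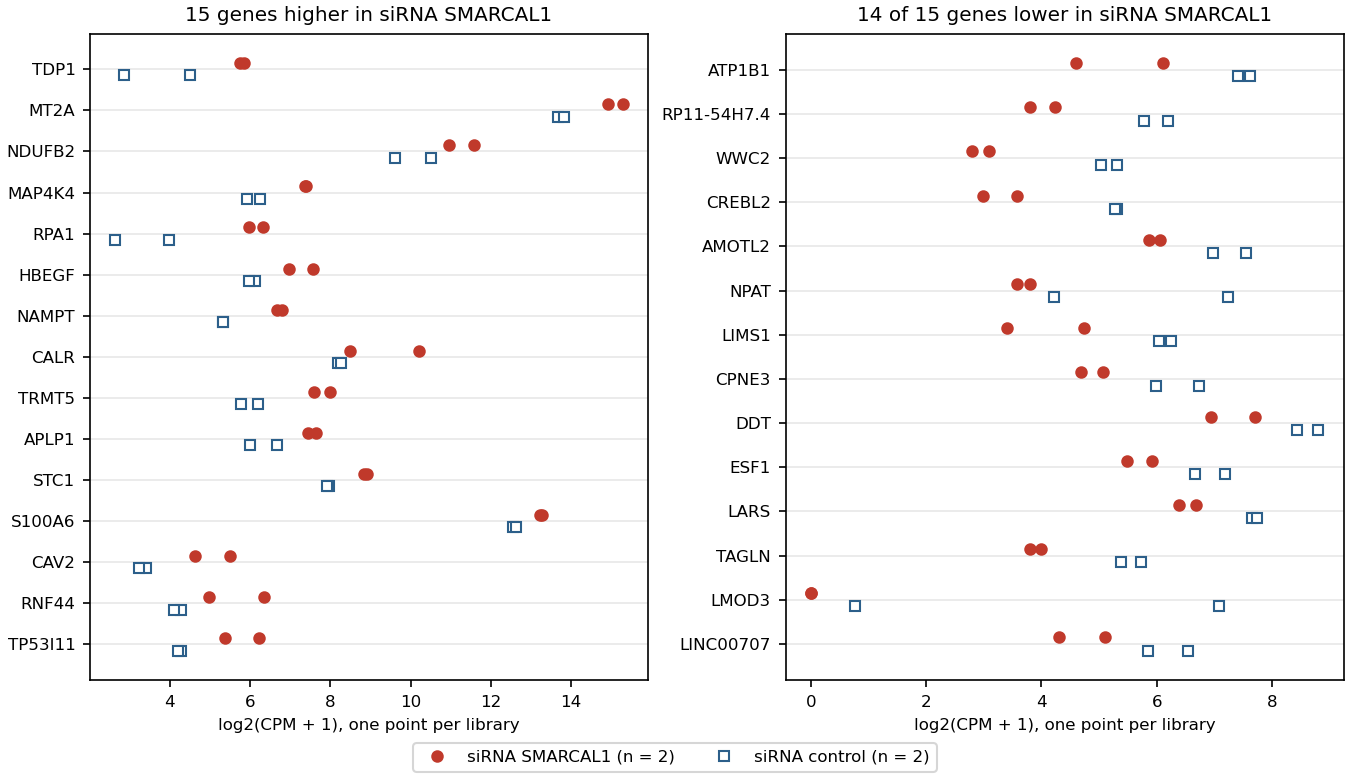
Level of 29 of the 30 genes in each siRNA library as log2(CPM + 1), with siRNA SMARCAL1 as filled circles above and siRNA control as open squares below each line. By the rule that chose them no gene overlaps; CALR, NPAT and LMOD3 have 1 library far from its replicate.

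MT2A, a metallothionein that binds zinc and copper and buffers them in the cell (chr16:56608199-56609497, plus strand), was the most abundant of the 30 genes. It stood at 40003 and 31092 CPM in siRNA SMARCAL1 and at 13183 and 14578 CPM in siRNA control. It took 3.73% and 2.88% of all counts in siRNA SMARCAL1 and 1.33% and 1.42% in siRNA control. The log2 fold change was 1.36 (SE 0.32, 95% interval 0.70 to 2.02, adjusted p = 0.291 by edgeR), and it was 1.60 between the replicate 1 libraries and 1.09 between the replicate 2 libraries. MT2A passed the threshold when the 4 siRNA libraries were fitted alone (adjusted p = 0.00486 by edgeR). Its level also varied without SMARCAL1 depletion: the clones' 2 control libraries held 15993 and 35212 CPM, the second above one siRNA SMARCAL1 library. The 6 knockout libraries held 7990 to 25139 CPM.

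Metallothionein genes are switched on by the zinc sensor MTF1 through metal response elements. The 250 bases before the RefSeq start of MT2A (chr16:56608334-56608583, GRCh38.p14, plus strand) are shown because MT2A was the most abundant of the 30 genes. They lie inside the GENCODE span of the gene given above, which starts upstream of the RefSeq start, at 56608199. Capitals mark matches to the core of that element, searched as TGCGCNC and TGCACNC on both strands.

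MT2A promoter: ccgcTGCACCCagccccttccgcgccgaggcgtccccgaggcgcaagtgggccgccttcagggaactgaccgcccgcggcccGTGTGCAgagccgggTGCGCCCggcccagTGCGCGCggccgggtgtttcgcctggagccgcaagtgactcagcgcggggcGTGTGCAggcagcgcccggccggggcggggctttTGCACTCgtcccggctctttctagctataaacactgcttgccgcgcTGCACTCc

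The window held 7 matches, 5 on the gene's strand and 2 on the other, with 0 overlapping. Of 35116 RefSeq promoter windows of that length, 24.8% held at least 1 match and 11 (0.0313%) held at least 7. A match is a run of letters and not a measured site. The other metallothioneins tested gave unlike values. MT1F stood at 29.9 and 61.3 CPM in siRNA SMARCAL1 and 23.7 and 27.4 CPM in siRNA control, without overlap and with a log2 fold change of 0.82 (SE 0.50). MT1E stood at 375 and 307 CPM in siRNA SMARCAL1 and 149 and 357 CPM in siRNA control, with overlap. MTF1 itself had a log2 fold change of -0.00 (SE 0.60). The zinc exporter SLC30A1, another gene that MTF1 controls, was lower, at 5.44 and 1.98 CPM in siRNA SMARCAL1 and 14.0 and 15.4 CPM in siRNA control.

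HBEGF, a ligand of the EGF receptor, stood at 188 and 124 CPM in siRNA SMARCAL1 and 68.4 and 62.5 CPM in siRNA control (log2 fold change 1.26, SE 0.33). STC1, a secreted glycoprotein hormone, stood at 484 and 457 CPM in siRNA SMARCAL1 and 249 and 240 CPM in siRNA control (log2 fold change 0.94, SE 0.26). APLP1, a relative of the amyloid precursor protein, stood at 175 and 199.7 CPM in siRNA SMARCAL1 and 63.1 and 101 CPM in siRNA control. In these 3 genes both siRNA SMARCAL1 libraries were above every other PLATE-seq library. So were those of MAP4K4, a kinase upstream of JNK, at 165 and 168 CPM in siRNA SMARCAL1 and 75.4 and 59.7 CPM in siRNA control. NAMPT, the rate-limiting enzyme of NAD salvage, stood at 109.6 and 100.8 CPM in siRNA SMARCAL1 and 39.4 and 39.3 CPM in siRNA control, against 33.3 to 69.8 CPM in the clone libraries.

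In 6 other higher genes at least 1 siRNA SMARCAL1 library lay within the range of the clone libraries. TDP1, which removes trapped topoisomerase from DNA, stood at 53.1 and 56.4 CPM in siRNA SMARCAL1 and 21.9 and 6.32 CPM in siRNA control, while the clone libraries held 22.5 to 64.4 CPM. It was therefore the siRNA control that lay below the other libraries. TRMT5, a transfer RNA methyltransferase, showed 194 and 252 CPM in siRNA SMARCAL1 and 53.5 and 73.0 CPM in siRNA control, with 38.8 to 267 CPM in the clone libraries. S100A6, a calcium-binding protein, had the smallest SE of the 30 genes and stood at 9949 and 9543 CPM in siRNA SMARCAL1 and 6027 and 6297 CPM in siRNA control (log2 fold change 0.66, SE 0.19). The clone libraries held 7433 to 11328 CPM of S100A6, so here too the siRNA control lay below the other libraries. In the TruSeq comparison of knockout clone 1 with its control, S100A6 and STC1 were higher as well, with log2 fold changes of 0.60 (adjusted p = 0.0241) and 0.62 (adjusted p = 0.0230) by edgeR. Of the 28 of the 30 genes tested there, WWC2 was the 1 other called, and it lay on the opposite side, at 0.37 (adjusted p = 0.0272) beside -2.35 in the siRNA comparison. CAV2, RNF44 and TP53I11 had log2 fold changes of 1.67 to 1.92, at 23.7 to 81.1 CPM in siRNA SMARCAL1 and 8.42 to 18.4 CPM in siRNA control. In each of them 1 siRNA SMARCAL1 library, at 44.2, 81.1 and 73.5 CPM in that order, lay above the clone libraries, which reached 32.1, 43.7 and 65.6 CPM. With any 1 siRNA library left out, the lowest log2 fold change was 1.39 for CAV2, 0.83 for RNF44 and 1.17 for TP53I11.

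In 2 of the higher genes the libraries differed unequally. CALR, the calcium-binding chaperone of the endoplasmic reticulum and a member of the MHC class I list, stood at 1179 and 359 CPM in siRNA SMARCAL1 and 289 and 310 CPM in siRNA control. Its log2 fold change was 1.36, and 0.26 without siRNA SMARCAL1 replicate 1. NDUFB2, a subunit of respiratory complex I whose exons overlap ADCK2 and BRAF, stood at 3078 and 1980 CPM in siRNA SMARCAL1 and 780 and 1466 CPM in siRNA control. Its log2 fold change was 1.98 between the replicate 1 libraries and 0.43 between the replicate 2 libraries, and both siRNA SMARCAL1 values were above the 930 to 1685 CPM of the clone libraries. Of 45 other respiratory chain genes, 18 were higher and 3 lower without overlap, against 18.1% higher and 19.2% lower over all genes, with a median log2 fold change of 0.12 (0.02 with library totals in place of TMM). ATP5B and NDUFC2 were the members at an unadjusted p under 0.05.

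ATP1B1, the beta subunit of the sodium-potassium pump (chr1:169105697-169132722, plus strand), had the smallest p of all genes. It stood at 23.1 and 68.2 CPM in siRNA SMARCAL1 and at 195 and 169 CPM in siRNA control. The log2 fold change was -2.02 (SE 0.38, 95% interval -2.81 to -1.23, adjusted p = 0.166 by edgeR), and DESeq2 gave -2.01 with an adjusted p of 0.00266. Both siRNA SMARCAL1 libraries lay below all 10 others, whose lowest value was 77.4 CPM. Both siRNA control libraries in turn lay above the clone libraries, which held 77.4 to 143 CPM. The siRNA SMARCAL1 values differed from each other as well, and the log2 fold change was -3.00 between the replicate 1 libraries and -1.29 between the replicate 2 libraries. Exons of ATP1B1 overlap NME7 on the other strand.

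WWC2, a relative of the Hippo scaffold KIBRA, stood at 7.49 and 5.93 CPM in siRNA SMARCAL1 and 38.6 and 31.6 CPM in siRNA control (log2 fold change -2.35, SE 0.53, adjusted p = 0.291 by edgeR). AMOTL2, an angiomotin that binds the Hippo effector YAP, stood at 65.3 and 57.3 CPM in siRNA SMARCAL1 and 187 and 125 CPM in siRNA control (log2 fold change -1.34, SE 0.31, adjusted p = 0.291 by edgeR). Both genes were below all 10 other libraries in both siRNA SMARCAL1 libraries. TAGLN, an actin-binding protein whose exons overlap PCSK7, stood at 12.9 and 14.8 CPM in siRNA SMARCAL1 and 51.7 and 40.7 CPM in siRNA control, also below all 10. LIMS1, an adaptor at integrin adhesions, stood at 9.53 and 25.7 CPM in siRNA SMARCAL1 and 75.4 and 64.6 CPM in siRNA control, where the clone libraries held 19.4 to 82.0 CPM.

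The mesenchymal and matrix list, of which TAGLN is a member, held genes on both sides. Of its 30 members tested, 3 were higher and 2 lower at an unadjusted p under 0.05, against 2.85% higher and 3.48% lower over all genes. The median was 0.06, and ran from -0.06 without siRNA SMARCAL1 replicate 2 to 0.31 without siRNA control replicate 1. ITGA5, the fibronectin receptor subunit, stood at 323 and 296 CPM in siRNA SMARCAL1 and 111 and 207 CPM in siRNA control. AXL, a receptor tyrosine kinase, stood at 84.4 and 73.2 CPM in siRNA SMARCAL1 and 173 and 126 CPM in siRNA control. The collagen gene COL6A1 was higher at 144 and 125 CPM in siRNA SMARCAL1 and 78.9 and 81.4 CPM in siRNA control, and TWIST1 was higher but under 24 CPM in every siRNA library.

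LARS, the leucyl transfer RNA synthetase, stood at 82.3 and 102 CPM in siRNA SMARCAL1 and 199.9 and 213 CPM in siRNA control (log2 fold change -1.17, SE 0.31). ESF1, a nucleolar protein of ribosomal RNA processing, stood at 59.2 and 43.5 CPM in siRNA SMARCAL1 and 145 and 100.4 CPM in siRNA control. Both were below all 10 other libraries.

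CREBL2, a transcription factor related to CREB, stood at 10.9 and 6.92 CPM in siRNA SMARCAL1 and 38.6 and 37.9 CPM in siRNA control. CPNE3, a calcium-dependent membrane-binding protein, stood at 32.7 and 24.7 CPM in siRNA SMARCAL1 and 62.2 and 106 CPM in siRNA control. Both were below all 10 other libraries. The long noncoding RNA LINC00707 stood at 33.3 and 18.8 CPM in siRNA SMARCAL1 and 92.0 and 56.9 CPM in siRNA control, and RP11-54H7.4, listed only by a clone name, at 12.9 and 17.8 CPM in siRNA SMARCAL1 and 71.9 and 54.0 CPM in siRNA control. DDT, a tautomerase related to the cytokine MIF, stood at 122 and 208 CPM in siRNA SMARCAL1 and 446 and 347 CPM in siRNA control, but the clone libraries held 112 to 302 CPM, so the siRNA control was the group outside their range. DDT is also near-identical to its overlapping copy DDTL, and how reads were split between them is uncertain. NPAT, a coactivator of histone genes whose exons overlap ATM, stood at 12.9 and 10.9 CPM in siRNA SMARCAL1 and 150 and 17.5 CPM in siRNA control, so its log2 fold change of -2.78 rested on siRNA control replicate 1 and was -0.54 without it. LMOD3, a muscle actin nucleator, had 0 and 0 CPM in siRNA SMARCAL1 and 134 and 0.70 CPM in siRNA control, a difference carried by that same library.

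In 5 other lists the medians were -0.10 for 32 proliferation genes, 0.07 for 38 DNA replication genes, 0.01 for 19 p53 targets, -0.03 for 26 genes of the unfolded protein and integrated stress responses and -0.11 for 27 proteasome genes. Without siRNA SMARCAL1 replicate 1 the median was -0.35 for the p53 targets, -0.28 for the stress response genes and -0.21 for the proteasome genes, and that of the DNA replication genes turned to -0.05. FEN1, the flap nuclease of lagging-strand synthesis, was higher at 32.7 and 41.5 CPM in siRNA SMARCAL1 and 13.1 and 14.0 CPM in siRNA control. ORC3, a subunit of the origin recognition complex, was lower at 6.12 and 8.90 CPM in siRNA SMARCAL1 and 23.7 and 16.1 CPM in siRNA control. Of 14 genes of the RNA interference machinery, which an siRNA engages in both groups, AGO2, the slicing Argonaute, stood at 238 and 205 CPM in siRNA SMARCAL1 and 363 and 314 CPM in siRNA control (log2 fold change -0.61, SE 0.26). The GW protein TNRC6A, its partner, lay on the other side at 54.4 and 24.7 CPM in siRNA SMARCAL1 and 17.5 and 19.7 CPM in siRNA control.

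**Figure D4:**
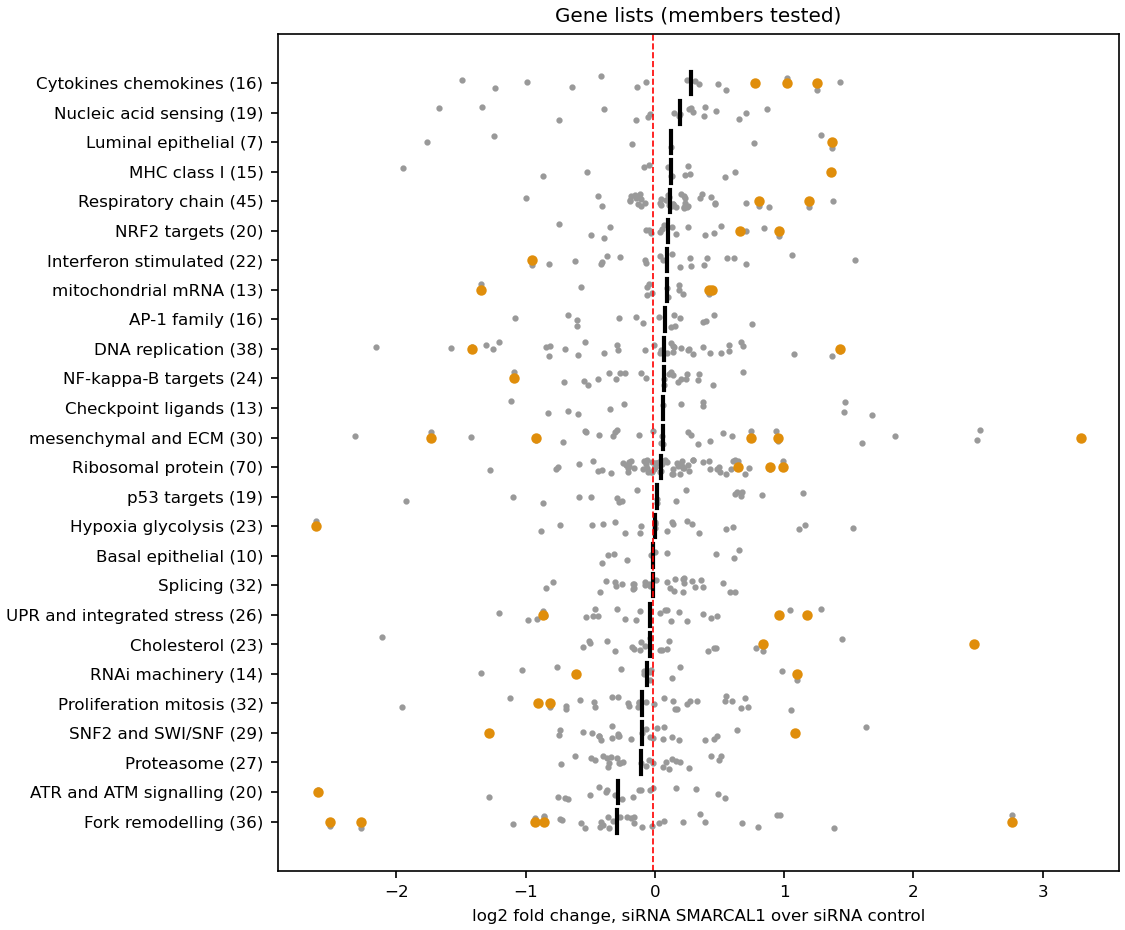
Log2 fold change of siRNA SMARCAL1 over siRNA control for the members of each list with 5 or more tested, a gene at 0 in a group being drawn at its bound. Numbers in brackets are members tested, small points are members, orange points those at an unadjusted p under 0.05, black bars list medians and the dashed line the median of all genes (-0.02); medians run from 0.28 for cytokines and chemokines to -0.30 for fork remodelling.

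The clones are labelled as SMARCAL1 knockouts and have control libraries of their own. SMARCAL1 RNA was not lower in them: the log2 fold change was 1.52 (SE 1.24) for the 3 clones in PLATE-seq. For clone 1 in TruSeq it was -0.07 (SE 0.11). Loss of the protein was not measured in these libraries. Across 4235 genes the siRNA effect and the mean effect of the 3 clones in PLATE-seq had a Spearman correlation of 0.0411, and across 4081 genes the siRNA effect and that of clone 1 in TruSeq 0.0426, both given as descriptions across genes, which are not independent replicates. Of the 544 genes at an unadjusted p under 0.05 in the siRNA comparison, 267 (49.1%) had the same sign in the clones, against 51.4% of all genes tested. Of the 30 genes, 11 had the same sign in the clones. In TruSeq clone 1 the same sign was held by 16 of the 28 of them tested there. There it was also held by 284 (55.4%) of 513 genes at an unadjusted p under 0.05 in the siRNA comparison, against 51.0% of all genes tested in both. The difference between the siRNA and knockout effects passed the threshold for 0 genes (0%) in edgeR, with 667 (7.76%) at an unadjusted p under 0.05, and for 19 in DESeq2. MT2A was at 1.36 in the siRNA comparison and -0.43 in the clones, ATP1B1 at -2.02 and 0.57, WWC2 at -2.35 and 0.51, RPA1 at 2.76 and 0.22, and TP53I11 at 1.67 and 2.23.

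The clone comparison called 17 genes (0.198%) at an adjusted p under 0.05 by edgeR, and 10 of them had the same sign in the siRNA comparison. NSA2, a ribosome biogenesis factor, was lower in both, at 57.2 and 60.3 CPM in siRNA SMARCAL1 and 139 and 109 CPM in siRNA control (log2 fold change -1.08, SE 0.36), beside -1.70 in the clones. CD109, a surface protein that binds TGF-beta, lay on opposite sides, at 11.6 and 16.8 CPM in siRNA SMARCAL1 and 0 and 6.32 CPM in siRNA control (log2 fold change 2.03, SE 0.90), beside -3.32 in the clones. DKK1, a secreted Wnt inhibitor, stood at 25.9 and 11.9 CPM in siRNA SMARCAL1 and 72.8 and 19.7 CPM in siRNA control, with overlap (log2 fold change -1.23, SE 0.60), beside 3.24 in the clones. In TruSeq of clone 1 the log2 fold change was -0.22 for NSA2 (adjusted p = 0.231 by edgeR) and 0.55 for DKK1 (adjusted p = 0.00402 by edgeR). For CD109 it was 0.25 (adjusted p = 0.0650 by edgeR), so TruSeq did not bear out a lower CD109 in clone 1. Control levels differed between the settings: CD109 stood at 21.0 and 98.0 CPM and DKK1 at 11.1 and 8.68 CPM in the clones' control.

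**Figure D5:**
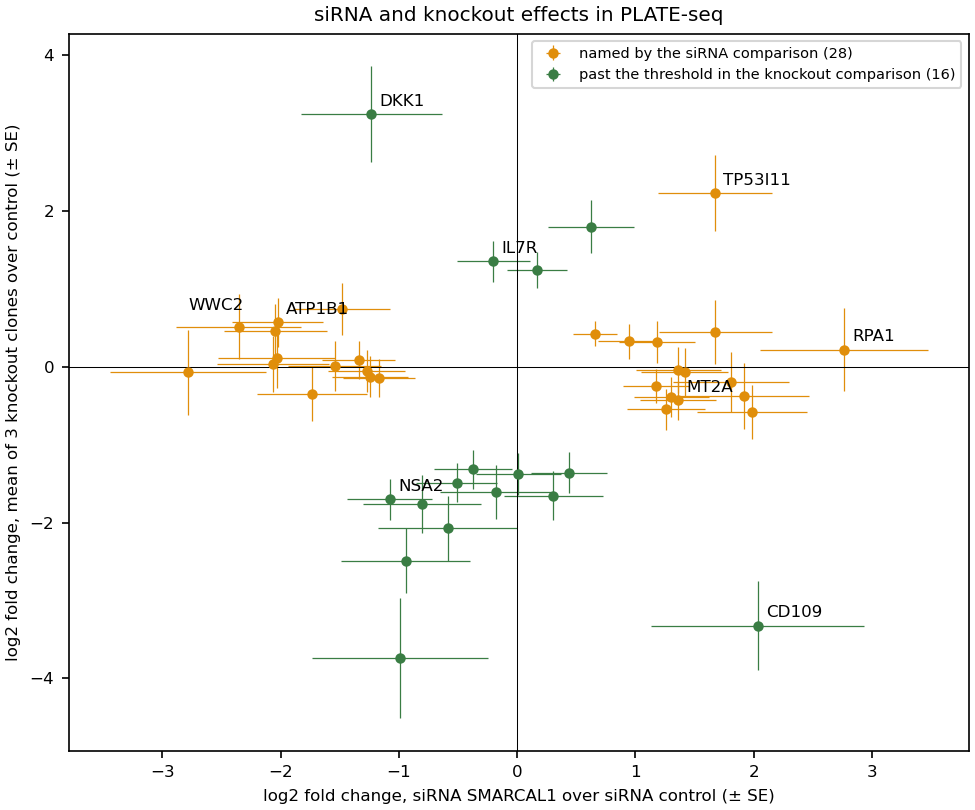
Log2 fold change of siRNA SMARCAL1 over siRNA control (horizontal) and of the mean of 3 knockout clones over their control (vertical), both in PLATE-seq with SE bars. Orange points are 28 of the 30 genes (LMOD3 is among those left out) and green points 16 of the 17 genes called in the clones (GDPD1 is left out); orange points other than TP53I11 lie between -0.58 and 0.74 on the vertical axis, and DKK1 and CD109 have opposite signs on the 2 axes.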

How the data were processed

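RNA of 12 PLATE-seq and 6 TruSeq libraries was used. The authors deposited raw counts per gene symbol, made with STAR and HTSeq on hg38 per the submitters' processing notes; versions, annotation and strand setting are not given in the sources used here. Neither library sizes nor tests included the 92 spike-ins. Totals were 807872 to 3068902 counts in PLATE-seq, at which a floor of 3 counts equals 0.911 to 3.72 CPM; floors cover counting error only. Replicates differed beyond counting noise (chi-square per degree of freedom 6.49 in siRNA SMARCAL1 and 8.27 in siRNA control).

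All 12 PLATE-seq libraries were fitted together with edgeR 4.0.16 in R 4.3.3: filterByExpr, TMM, group as the only term, quasi-likelihood F test, two-sided, Benjamini-Hochberg over 8595 genes, threshold 0.05, 6 residual degrees of freedom, biological coefficient of variation 0.330. Each standard error is the absolute log2 fold change over the root of its F statistic. CPM use TMM library sizes. TruSeq was fitted on its own over 17371 genes. Nothing in the labels ties a replicate to a separate culture beyond the word biological, so p-values measure the spread between these libraries. The procedure was tested on simulated counts.

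Genes to be named were SMARCAL1, CD274, the 15 smallest p in each direction among genes without overlap that averaged at least 20 CPM in either group, and up to 4 members of each of 29 lists at an unadjusted p under 0.05. Not every list member that met this rule is described in the text. The rule also covered up to 10 genes called in the difference between the siRNA and knockout effects, of which there were 0. RPA2, RPA3, HLTF, the metallothioneins, the sensing genes, RAD50, COL6A1 and the genes called in the clones were added after values were seen. A few genes, 1 of the 30 among them, are not reported here and are left out of the plots by gene and list, though counts and medians include them. The members and lists were chosen with earlier results of these data known. Coordinates are from GENCODE release 29 (GRCh38, 1-based), matched by symbol for 29226 of 44357 symbols; MT2A promoter sequence is from RefSeq (GRCh38.p14). Symbols turned into dates (28) or shared by entries (4) were not named. Alternatives were other scaling, filters on low counts, DESeq2 1.42.0, the 4 siRNA libraries alone, replicate number as a block, and leaving out each library.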

Additional observations from a re-analysis of the deposited data

How the results depend on the processing

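The count of genes past the adjusted threshold, 0, was 0 with DESeq2 size factors, library totals without TMM, a stricter filter or a replicate block, but 22 with no filter on low counts (LMOD3, MT2A, RPA1 and ATP1B1 among them), 2 with DESeq2 and 1 (MT2A) with the 4 siRNA libraries alone. Leaving out single libraries gave 0 to 2, NPAT without siRNA control replicate 2 and ATP1B1 and CALR without siRNA SMARCAL1 replicate 2. The 544 genes at an unadjusted p under 0.05 became 501 to 747, 513 with the replicate block, and 468 to 647 with libraries left out, the highest without replicate 2 of the clones' control. Genes past the threshold in the difference between siRNA and knockout effects, 0, were 44 with no filter, 19 with DESeq2, 4 with the replicate block and 0 to 15 with libraries left out, the highest without knockout clone 2 replicate 1. CD274, at -0.34, ranged from -1.65 to 0.29 with libraries left out, the reversal being without siRNA SMARCAL1 replicate 2. The causes were not tested.

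The numbers did not pair the siRNA libraries (correlation of deviations -0.0257), and the block changed no call in the siRNA comparison. Of 739 alternative values for 68 single genes, 718 kept direction and side of the threshold, 20 passed it and 1 reversed. With 2 libraries a group, genes below 10 CPM had a median SE of 1.09 log2 units.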

Other observations

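WWC2 and AMOTL2 belong to the Hippo network, in which WWC proteins and LATS kinases restrain the coactivators YAP1 and WWTR1 and the TEAD factors that they bind. The other genes of the network below were chosen after their values were seen, so they are given as values with no test. TEAD1 stood at 4.76 and 3.95 CPM in siRNA SMARCAL1 and 24.5 and 6.32 CPM in siRNA control, and TEAD4 at 8.85 and 8.90 CPM in siRNA SMARCAL1 and 29.8 and 14.0 CPM in siRNA control. YAP1 stood at 13.6 and 11.9 CPM in siRNA SMARCAL1 and 26.3 and 19.0 CPM in siRNA control, and WWC1 at 64.0 and 70.2 CPM in siRNA SMARCAL1 and 98.2 and 114 CPM in siRNA control. The YAP target CYR61 stood at 4.76 and 2.97 CPM in siRNA SMARCAL1 and 7.89 and 13.3 CPM in siRNA control. These 5 genes were lower without overlap, as were 19.2% of all genes tested, and their adjusted p-values were 0.741 to 0.920 by edgeR. LATS2, TEAD3, AMOTL1 and WWTR1 overlapped between the groups.

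ADM, the vasodilator peptide and a hypoxia target, stood at 2.72 and 2.97 CPM in siRNA SMARCAL1 and 21.0 and 14.7 CPM in siRNA control (log2 fold change -2.62, SE 0.74, adjusted p = 0.378 by edgeR). The other 22 hypoxia and glycolysis genes tested held none at an unadjusted p under 0.05, and the list's median was 0.00. PDGFRA, a receptor common on fibroblasts, stood at 1.36 and 0 CPM in siRNA SMARCAL1 and 44.7 and 7.72 CPM in siRNA control. It was the 1 fibroblast marker of 8 abundant enough to test. Over all genes, 15 had 0 counts in both siRNA SMARCAL1 libraries with at least 10 counts in siRNA control, and 7 had 0 counts in both siRNA control libraries with at least 10 in siRNA SMARCAL1.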
